A study of Rattus norvegicus with 78 samples.

Results

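The genes described here act on microtubules or on the growth of nerve cell processes: the stathmins Stmn1, Stmn2, Stmn3 and Stmn4, the microtubule-associated proteins Map2, Map1b and Mapt, the neuronal tubulin Tubb3, the growth cone protein Gap43 and the doublecortin gene Dcx. Members were all probesets whose gene symbol in the array annotation was one of these 10 genes, which gave 19 of 31042 probesets that are not controls, on an array that names 14217 genes. RNA of hippocampus (HIP) and of the whole frontal lobe (prefrontal/frontal cortex, P/FC) was measured in adult male Flinders Sensitive Line (FSL) and Flinders Resistant Line (FRL) rats. By the study, both lines were bred from Sprague-Dawley rats, FSL for sensitivity to an anticholinesterase and FRL for resistance to it. FSL rats serve as a model of depression and the counter-selected FRL rats as their control. Cohort 1 had 12 FRL and 9 FSL rats and cohort 2 had 10 FRL and 8 FSL rats, which gave 39 arrays of each region and 78 in all. The labels name no drug for any group, and by the study's methods all rats had been through a forced swim test before their tissue was taken. The lines are separate breeding stocks, so that every inherited difference between them enters the comparison. In HIP the median intensity of an array lay between 56.8 and 63.0, and in P/FC between 60.8 and 65.9. Prox1, which marks granule cells of the hippocampus, had an intensity of 406 ± 37.1 (SD, n = 39) in HIP and of 118 ± 11.6 in P/FC, so that the tissue labels are borne out by it. The tissues are bulk samples, in which fewer cells of a type and less RNA per cell cannot be told apart.

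Microtubules are polymers of tubulin that fill axons and dendrites and grow or shrink at their ends. Stathmins bind free tubulin and favour shrinkage, while the microtubule-associated proteins bind the polymer and stabilise it, Map2 mainly in dendrites and Mapt (tau) mainly in axons. Gap43 lies under the membrane of growth cones and axon endings, and Dcx binds microtubules in migrating, newly formed neurons. In adult rats the hippocampal dentate gyrus still forms such neurons.

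RefSeq promoters on GRCr8 (250 bases before to 50 bases after the start of the gene) matched 6 of the 10 genes: Stmn1, Stmn3, Map1b, Map2, Tubb3 and Dcx. Those of Stmn3 and Tubb3 are shown because both genes passed the test as higher in P/FC of FSL rats, as described further on. That of Stmn3 lies at chr3:188802445-188802744 on the minus strand and that of Tubb3 at chr19:68365437-68365736 on the plus strand, and both are written in the direction of the gene. Capitals mark the GC box GGGCGG and the CCAAT box CCAAT, searched on both strands.
Stmn3: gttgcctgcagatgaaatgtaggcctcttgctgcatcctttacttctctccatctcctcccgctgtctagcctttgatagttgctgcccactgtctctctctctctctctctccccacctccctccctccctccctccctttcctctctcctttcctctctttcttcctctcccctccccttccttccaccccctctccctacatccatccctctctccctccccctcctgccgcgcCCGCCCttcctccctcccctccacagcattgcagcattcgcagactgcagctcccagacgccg
Tubb3: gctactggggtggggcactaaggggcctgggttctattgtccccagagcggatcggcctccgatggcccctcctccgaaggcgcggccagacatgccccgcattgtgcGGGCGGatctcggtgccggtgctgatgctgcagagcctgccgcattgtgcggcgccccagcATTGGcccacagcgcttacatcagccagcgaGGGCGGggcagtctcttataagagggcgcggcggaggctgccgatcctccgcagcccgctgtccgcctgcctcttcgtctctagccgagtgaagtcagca
The Stmn3 window held 1 GC box, and its GC content was 60.0%. The Tubb3 window held 2 GC boxes and 1 CCAAT box at a GC content of 67.3%. Of 33469 promoters of this length, 33.1% hold the GC box and 37.5% the CCAAT box. The letters of the TATA box TATAAA (14.2% of promoters) and of the E-box CACGTG (6.42%) are in neither window. GC boxes do not overlap the CCAAT box in these windows.

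Of the 19 member probesets, 17 were kept in each region, that is, they exceeded an intensity of 30 on 50% or more of a line's arrays, in both lines. All 10 genes kept at least 1 probeset. The probesets not kept were Gap43 1371287_at, whose highest intensity on any array was 14.9, and Dcx 1387601_at, whose highest was 14.1, so that neither was above 30 on any array. A probeset is a group of short probes, and some probesets match more than 1 transcript or gene. Intensities rank the probesets of a gene as brighter or dimmer, but are not read as relative amounts of RNA between probesets.

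Across the members, the line differences were small, and Stmn2 stood first in both regions. In HIP, 2 probesets were higher in FSL, 1 was lower and 14 stayed above an adjusted p of 0.05 (limma, Benjamini-Hochberg over all kept probesets), beside 7.33% of 21630 probesets called over the whole array, 3.2% as higher and 4.13% as lower. In P/FC, 5 were higher, 1 was lower and 11 did not pass, beside 18.6% of 22370 probesets, 9.76% as higher and 8.86% as lower. The median change of the 17 members was 0.03 on the log2 scale in HIP and 0.04 in P/FC, where that of all kept probesets was 0.00 in each. In an account by gene, Stmn2 was higher and Map2 lower in both regions, and Stmn3, Tubb3 and Gap43 were higher in P/FC.

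**Figure D1:**
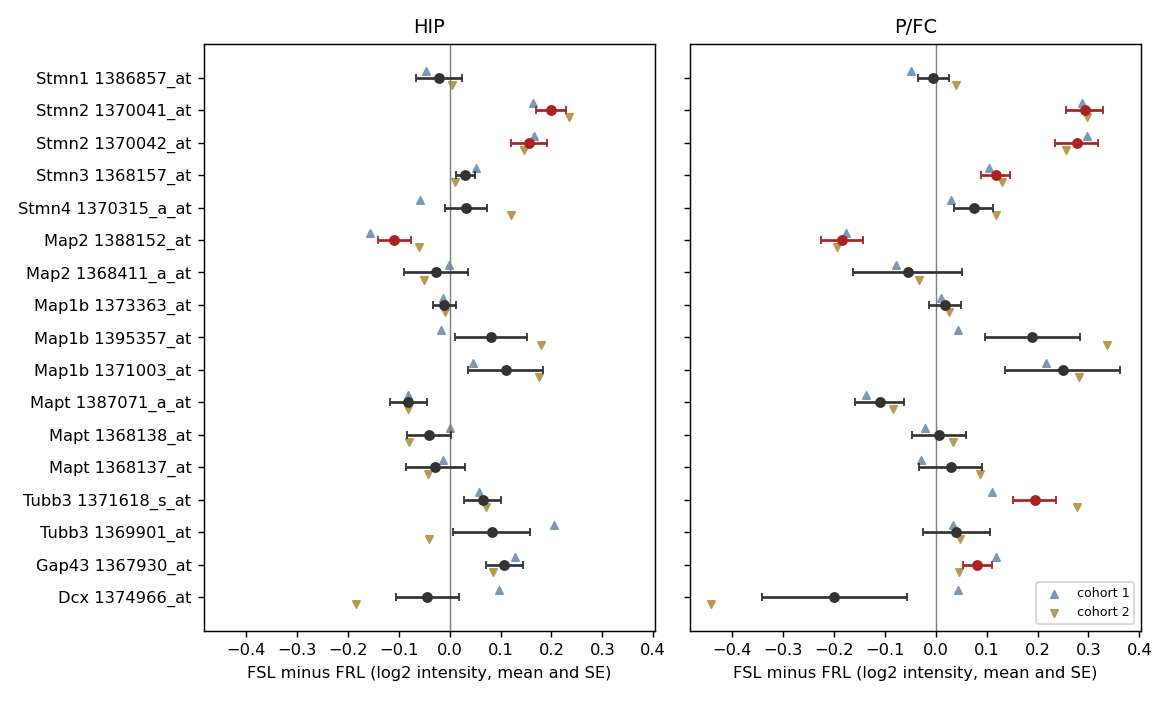
FSL minus FRL in log2 intensity for the 17 kept member probesets in HIP (left) and P/FC (right). Circles with bars are the mean of both cohorts and its standard error, red where the adjusted p was under 0.05, and triangles are the cohorts alone. Stmn2 lies farthest to the right of 0 among the called probesets of both panels, and Map2 1388152_at lies to the left of 0 in both.

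Stmn2 (SCG10), the stathmin of growing neuron processes, has 2 probesets, and both were higher in FSL in both regions and both cohorts. In HIP of cohort 1, Stmn2 1370041_at ranged from 1634 to 1985 in the FRL rats with a median of 1852, and from 2027 to 2135 with a median of 2060.5 in the FSL rats. In HIP of cohort 2, it ranged from 1481 to 1981 (median 1858) in FRL and from 1989.9 to 2232 (median 2111) in FSL. Every FSL array thus lay above every FRL array of its cohort in HIP, which 0.236% of kept probesets did in either direction in cohort 1 and 0.573% in cohort 2. The change over both cohorts was 0.20 on the log2 scale (SE 0.03, adjusted p = 1.07e-05, limma), or 1.15-fold.

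In P/FC of cohort 1, Stmn2 1370041_at ranged from 1560 to 2013 (median 1764) in FRL and from 1954 to 2318 (median 2154) in FSL. In P/FC of cohort 2, it ranged from 1626 to 1953 (median 1791) in FRL and from 1998 to 2340 (median 2240) in FSL. In cohort 1, 8 of 9 FSL arrays lay above all FRL arrays, and in cohort 2 all 8 did, where 0.554% of kept probesets had lines that did not overlap. The change was 0.29 (SE 0.04, adjusted p = 2.41e-07, limma), or 1.22-fold.

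The other Stmn2 probeset, 1370042_at, changed by 0.16 in HIP (SE 0.03, adjusted p = 0.00287) and by 0.28 in P/FC (SE 0.04, adjusted p = 1.2e-05; limma). In HIP its lines overlapped, with 1307 to 1632 (median 1450) in FRL and 1464 to 1782 (median 1617) in FSL of cohort 1, and 1224 to 1619 (median 1460) against 1484 to 1745 (median 1568) in cohort 2. In P/FC it ranged from 1278 to 1845 (median 1427) in FRL and from 1639 to 1980 (median 1811) in FSL of cohort 1. In P/FC of cohort 2 the lines did not overlap, with a highest FRL value of 1623 and a lowest FSL value of 1673. The line changes of the 2 probesets differed by -0.04 in HIP (1370042_at minus 1370041_at, p = 0.197) and by -0.02 in P/FC (p = 0.612; permutation tests of the line labels within cohort, 100000 resamples, two-sided). With the Actb 3' to 5' ratio, a measure of RNA quality, as a covariate, the change of 1370042_at in HIP was 0.08 (adjusted p = 0.407), while 1370041_at passed.

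**Figure D2:**
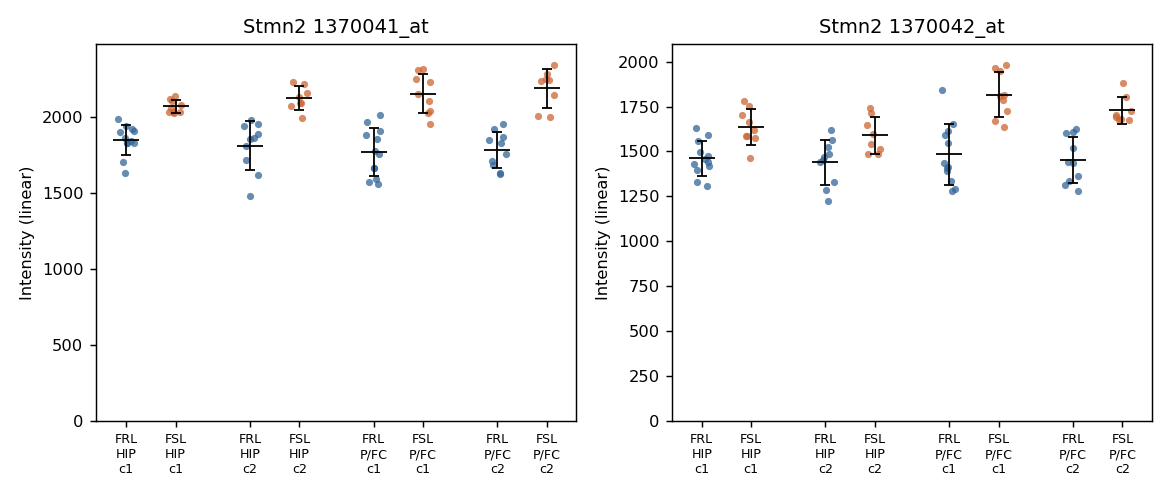
Intensity of the 2 Stmn2 probesets on each array, by line, region and cohort (c1, c2); bars are the mean and SD of 8 to 12 arrays, and the axes start at 0. In HIP the 1370041_at values of FSL lie at or above 1989.9 and those of FRL at or below 1985.

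Of the other stathmins, Stmn3, a neuronal stathmin, changed by 0.12 in P/FC (SE 0.03, adjusted p = 0.00336, limma). It ranged from 2667 to 3240 (median 2953) in FRL and from 2992 to 3349 (median 3119) in FSL of cohort 1, and from 2700 to 3095 (median 2892) against 3012 to 3384 (median 3195) in cohort 2. All 9 and all 8 FSL arrays lay above the FRL median of their cohort, with overlap in both cohorts. The call was lost in a fit with the Gapdh ratio, described further on (0.10, adjusted p = 0.0791). In HIP its change was 0.03 (SE 0.02, adjusted p = 0.362). Stmn4 had changes of 0.03 in HIP (SE 0.04, adjusted p = 0.733) and 0.07 in P/FC (SE 0.04, adjusted p = 0.176). Stmn1, the stathmin that is not restricted to neurons, had changes of -0.02 in HIP (SE 0.05, adjusted p = 0.854) and 0.00 in P/FC (SE 0.03, adjusted p = 0.937).

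Tubb3 encodes the beta-tubulin of neurons, and its brighter probeset 1371618_s_at was higher in P/FC of FSL rats. It ranged from 987 to 1251 (median 1088) in FRL and from 1119 to 1264 (median 1197) in FSL of cohort 1, and from 661 to 923 (median 780) against 826 to 1068 (median 961) in cohort 2. By this probeset the levels of both lines were lower in cohort 2, and the lines overlapped in each cohort. The change was 0.19 (SE 0.04, adjusted p = 0.0012, limma), with 0.11 in cohort 1 (unadjusted p = 0.0603) and 0.28 in cohort 2 (unadjusted p = 5.8e-05). The call was lost with the Gapdh ratio as a covariate (0.12, adjusted p = 0.125). The suffix _s of this probeset marks probes that can match transcripts of more than 1 gene, so that signal from other tubulins is not separated from Tubb3 by it. The dim probeset 1369901_at, at 43.0 to 74.7 over all P/FC arrays, changed by 0.04 (SE 0.07, adjusted p = 0.727). Its P/FC means were alike in cohorts 1 and 2, at 57.4 and 57.3 in FRL and 58.8 and 58.9 in FSL. The changes of the 2 probesets differed by -0.15 (dim minus bright, p = 0.0261, adjusted p = 0.22 over 14 pairs, permutation test). In HIP the changes were 0.06 (adjusted p = 0.319) and 0.08 (adjusted p = 0.585).

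Gap43 1367930_at was higher in P/FC of FSL, by 0.08 (SE 0.03, adjusted p = 0.0419, limma). It ranged from 2246 to 2787 (median 2434) in FRL and from 2444 to 2881 (median 2638) in FSL of cohort 1, and from 2338 to 2680 (median 2497) against 2481 to 2771 (median 2570) in cohort 2. All 9 FSL arrays of cohort 1 and 7 of 8 of cohort 2 lay above the FRL median of their cohort, and the ranges overlapped. The call ended without FRL P/FC cohort 1 replicate 2, the array whose Mapt 1387071_a_at value was far above its group (adjusted p = 0.0552), and with no filter (adjusted p = 0.0519). In HIP the change was 0.11 (SE 0.04, adjusted p = 0.0613), and it passed at a filter of 100 (adjusted p = 0.0337) and after quantile normalisation (adjusted p = 0.0323).

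Map2, the dendritic microtubule-associated protein, was lower in FSL by its brighter probeset 1388152_at in both regions. In HIP it ranged from 2327 to 2856 (median 2480) in FRL and from 2132 to 2438 (median 2218) in FSL of cohort 1, and from 2359 to 2976 (median 2713) against 2288 to 2822 (median 2605) in cohort 2. In cohort 1, 7 of 9 FSL arrays lay below all FRL arrays, while in cohort 2 the ranges largely overlapped, with 4 of 8 below the FRL median. The change was -0.11 (SE 0.03, adjusted p = 0.0283, limma). In P/FC it ranged from 2778 to 3762 (median 3220) in FRL and from 2634 to 3112 (median 2907) in FSL of cohort 1, and from 2417 to 3426 (median 2873) against 2426 to 2735 (median 2531) in cohort 2. The change in P/FC was -0.18 (SE 0.04, adjusted p = 0.00189), and all 9 and all 8 FSL arrays lay below the FRL median of their cohort. With an RNA quality ratio as a covariate, the call was lost in HIP with Actb (-0.14, adjusted p = 0.0538) and in P/FC with Gapdh (-0.12, adjusted p = 0.152). The probeset 1368411_a_at, whose suffix _a marks alternative transcripts of 1 gene, had changes of -0.03 in HIP (SE 0.06, adjusted p = 0.867) and -0.06 in P/FC (SE 0.11, adjusted p = 0.771). The changes of the 2 Map2 probesets differed by 0.08 in HIP (p = 0.178) and by 0.13 in P/FC (p = 0.288; permutation tests).

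**Figure D3:**
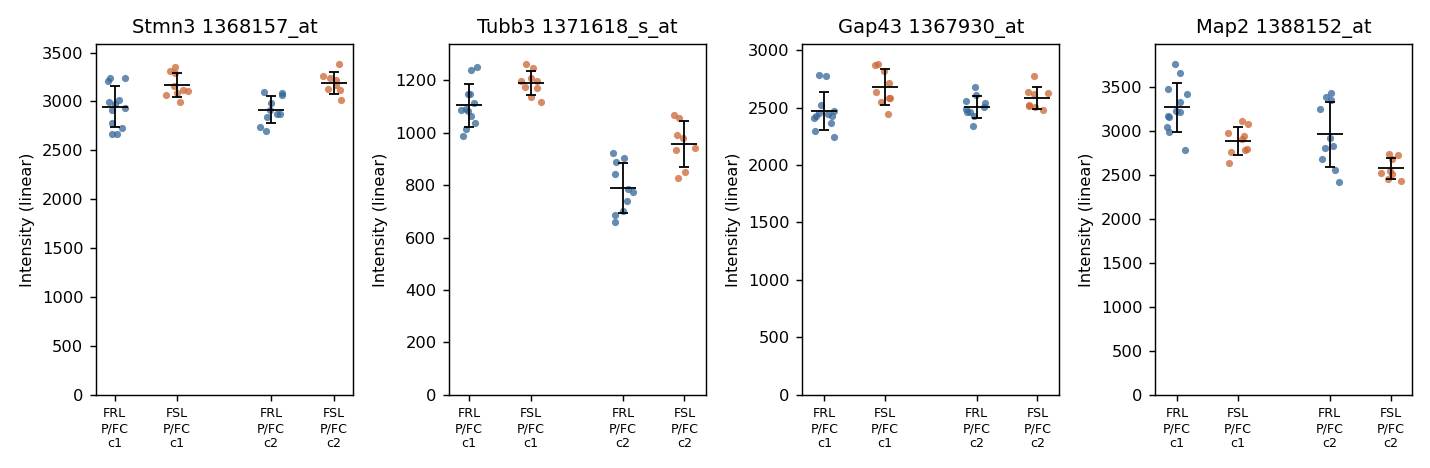
Intensity in P/FC of the other called probesets, Stmn3, Tubb3, Gap43 and Map2, on each array by line and cohort (c1, c2); bars are the mean and SD of 8 to 12 arrays, and the axes start at 0. Lines overlap in each panel, and Tubb3 is lower in both lines of cohort 2.

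Markers of other cells also differed between the lines. Astrocyte markers were lower in FSL for 6 of 9 measured genes in HIP and for 8 of 9 in P/FC, with a median change of -0.11 and -0.26 on the log2 scale, and none was higher. Their summed intensity in P/FC had a median of 18668 in FRL (14615 to 22178) and of 15776 in FSL (14643 to 17521). Other lists also had calls in P/FC. Endothelial and mural markers were lower for 4 of 9 genes (median -0.16), oligodendrocyte precursor markers for 2 of 4 (-0.25) and microglia markers for 2 of 10 (-0.21), and none of these was higher. In HIP, 1 of 9 endothelial and mural markers was lower, and of 9 microglia markers 1 was higher and 1 lower. Of the 13 neuron markers, 1 in HIP and 2 in P/FC were higher and none was lower, with medians of 0.05 and 0.04. Over all kept probesets, 4.13% were called lower and 3.2% higher in HIP, and 8.86% and 9.76% in P/FC. Each marker gene was counted by its brightest kept probeset. No list was tested against these shares.

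Striatum markers were higher in P/FC of FSL for 2 of 8 genes, beside 9.76% of all kept probesets. They were Drd1 (0.76, SE 0.28, adjusted p = 0.049) and Tac1 (0.89, SE 0.30, adjusted p = 0.0325; limma), and the median change over the list was 0.55. For every gene of the list the change was larger in cohort 1 than in cohort 2. Drd1 was at 1.24 and 0.27 in cohorts 1 and 2, Tac1 at 1.44 and 0.34, and Adora2a at 1.09 and -0.04. The summed intensity of the striatum markers over both cohorts had a median of 1962 in FRL (1434 to 6067) and of 3597 in FSL (1535 to 6122), so that the ranges overlapped while the medians differed. With tissue marker scores as covariates, all called members but Gap43 (adjusted p = 0.0636) passed in P/FC. The part of the astrocyte, vascular, precursor and microglia markers in the member results was not tested.

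The RNA quality ratios had lower means in FSL, by amounts that varied with ratio, region and cohort. The 3' to 5' ratio of Gapdh compares probes at the ends of the transcript, and its log2 mean in P/FC was 0.83 and 0.92 in FRL of cohorts 1 and 2 and 0.74 and 0.82 in FSL. The Actb ratio in HIP was 0.72 and 0.82 in FRL and 0.60 and 0.73 in FSL. The Gapdh ratio in HIP was closer between the lines, at 0.80 and 0.86 in FRL and 0.76 and 0.82 in FSL. The Actb ratio in P/FC was 0.73 and 0.86 in FRL and 0.64 and 0.84 in FSL. These differences in the ratios were not tested. With the Gapdh ratio as a covariate, the 2 Stmn2 probesets passed in P/FC, with changes of 0.27 and 0.21. The other 4 calls in P/FC were lost. Stmn3 was then at 0.10 (adjusted p = 0.0791) and Gap43 at 0.10 (adjusted p = 0.0813), where they had been at 0.12 and 0.08. Tubb3 was at 0.12 (adjusted p = 0.125), where it had been at 0.19, and Map2 at -0.12 (adjusted p = 0.152), where it had been at -0.18. With the Actb ratio in P/FC, Stmn2 (0.28 and 0.25), Stmn3 (0.11, adjusted p = 0.0111), Tubb3 (0.16, adjusted p = 0.00392) and Map2 (-0.17, adjusted p = 0.007) passed, and Gap43 (0.08, adjusted p = 0.0641) did not.

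In HIP, Stmn2 1370041_at passed with either ratio, at 0.18 with Gapdh and 0.16 with Actb. Map2 was at -0.12 with the Gapdh ratio (adjusted p = 0.0333) and at -0.14 with the Actb ratio (adjusted p = 0.0538), so that its call was lost with the Actb ratio while the change was larger than the -0.11 without it.

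Map1b, the early microtubule-associated protein of growing axons, has 3 kept probesets and none passed. The brightest, 1373363_at, had changes of -0.01 in HIP (SE 0.02, adjusted p = 0.842) and 0.02 in P/FC (SE 0.03, adjusted p = 0.743). The probesets 1395357_at and 1371003_at had changes of 0.19 (SE 0.09, adjusted p = 0.158) and 0.25 (SE 0.11, adjusted p = 0.122) in P/FC. In P/FC, 1371003_at ranged from 113 to 238 (median 180) in FRL and from 160 to 243 (median 207) in FSL of cohort 1, and from 77.3 to 231 (median 126) against 115 to 227 (median 163) in cohort 2. The lines overlapped in each cohort.

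These dimmer Map1b probesets followed the RNA quality of the array within the groups. After group means were removed, the Actb ratio in P/FC correlated with 1395357_at at r = -0.80 (rho = -0.78, permutation p = 1e-05 for each, the smallest these resamples can give, adjusted p = 0.00023) and at r = -0.76 without the 2 farthest arrays. The correlation with 1371003_at was r = -0.70 (rho = -0.68, p = 1e-05 for each, adjusted p = 0.00023) and -0.64 without those arrays. These are 2 of 68 such relations over the 17 probesets, both regions and both ratios, each over 39 arrays, of which 14 passed. Probesets of other genes were among those that passed by Pearson r. Tubb3 1371618_s_at in P/FC was at r = -0.56 with Actb and -0.48 with Gapdh. By rank neither passed (rho = -0.42 and -0.36, adjusted permutation p = 0.0615 and 0.138). Stmn2 1370042_at was at r = -0.47 in HIP and -0.45 in P/FC with Actb. By rank it passed in P/FC only (adjusted permutation p = 0.0107, and 0.0615 in HIP). Without the 2 farthest arrays it was at -0.29 in HIP and -0.54 in P/FC. In HIP, Map2 1368411_a_at was at -0.56 with Gapdh and -0.49 with Actb, and Mapt 1368138_at was at 0.49 with Actb. By rank, Map2 with Actb did not pass (adjusted permutation p = 0.134), while Map2 with Gapdh (0.0107) and Mapt (0.0359) did. With the Gapdh ratio as a covariate, the P/FC changes of 1395357_at and 1371003_at were -0.04 (adjusted p = 0.861) and -0.06 (adjusted p = 0.806). With the Actb ratio they were 0.07 (adjusted p = 0.509) and 0.12 (adjusted p = 0.393), which is smaller than without it and of the same sign.

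**Figure D4:**
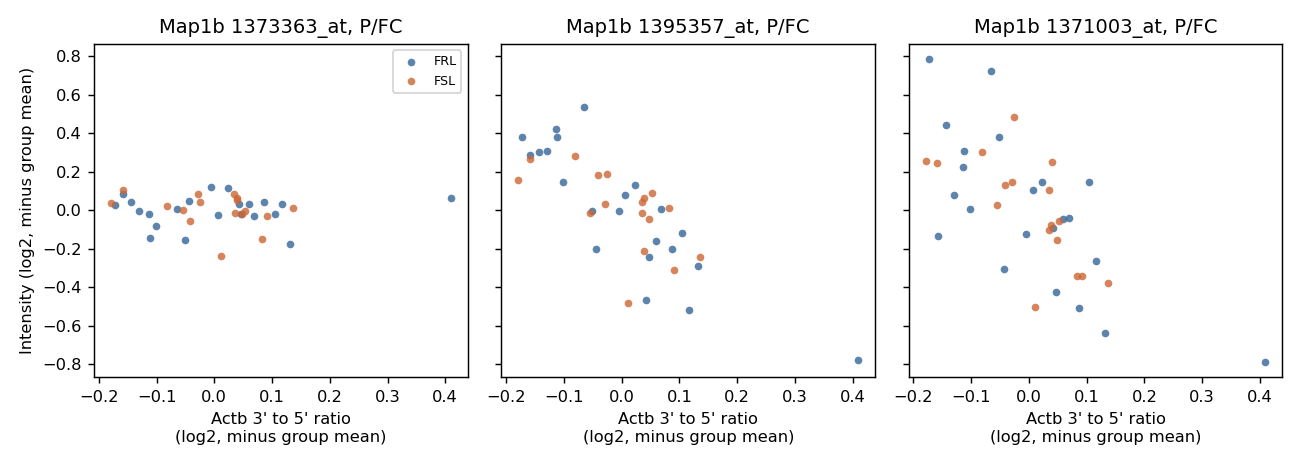
Log2 intensity of the 3 Map1b probesets in P/FC against the log2 ratio of the 3' to 5' Actb probesets, each minus its group mean, for the 39 arrays by line. The 2 dimmer probesets fall as the ratio rises (r = -0.80 and -0.70), and 1 FRL array lies far to the right.

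Mapt, which encodes tau, has 3 kept probesets and none passed. The brightest, 1387071_a_at, had changes of -0.08 in HIP (SE 0.04, adjusted p = 0.181) and -0.11 in P/FC (SE 0.05, adjusted p = 0.108). In P/FC of FRL cohort 1 it ranged from 1915 to 3573 (median 2063), the highest value being that of replicate 2, and from 1777 to 2105 (median 1949) in FSL. The changes of 1368138_at were -0.04 in HIP and 0.01 in P/FC, and those of 1368137_at were -0.03 and 0.03, with adjusted p from 0.66 to 0.955. They differed from the brightest by 0.12 (p = 0.0589) and 0.14 (p = 0.054) in P/FC (permutation tests).

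Dcx 1374966_at, the marker of newly formed neurons, was dim, at 55.5 to 115 in HIP and 35.3 to 145 in P/FC. Its changes were -0.04 in HIP (SE 0.06, adjusted p = 0.75) and -0.20 in P/FC (SE 0.14, adjusted p = 0.359). In P/FC of cohort 2 it ranged from 48.1 to 145 (median 74.4) in FRL and from 49.4 to 88.2 (median 52.5) in FSL, while in cohort 1 the medians were 78.5 and 86.1. Of 7 listed immature neuron markers, 4 were measured (Prox1, Neurod1, Sox4 and Calb2), with 0 calls in either region (limma). Eomes, Sox11 and Igfbpl1 had no kept probeset. Prox1 is also the granule cell marker given above, so that the measured genes do not stand for newly formed neurons alone.

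Between the cohorts, the line change of no member differed at an adjusted p of 0.05, nor did that of any probeset in HIP or in P/FC (limma). At an unadjusted p under 0.05, 2 members differed in HIP (Stmn4, 0.18, p = 0.0386, and Dcx, -0.28, p = 0.0289) and 0 in P/FC, beside 4.33% and 4.63% of all kept probesets. In each cohort on its own, 5 and 3 of the 17 members had an unadjusted p under 0.05 in HIP and 6 and 8 in P/FC, beside 14.5%, 13.8%, 23.1% and 19.8% of all. The members that had it in both cohorts numbered 2 in HIP, the Stmn2 probesets, and 4 in P/FC, the Stmn2 probesets, Stmn3 and Map2 1388152_at, beside 4.85% and 9.87% of all with 1 sign.

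Between the regions, the levels of most members differed. Of the 17 probesets, 11 were higher in P/FC, 3 were higher in HIP and 3 did not pass, beside 69.6% of 20963 probesets called over the array, 48.5% as higher in P/FC and 21.1% as higher in HIP. The median difference of the members was 0.19, and that of all probesets was 0.08. By the methods each region had its own array runs, and the effects of run and region cannot be told apart. Arrays of 1 rat are not linked in the labels.

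Gap43 and Stmn1 were highest in P/FC relative to HIP. Gap43 1367930_at ranged from 993 to 1377 (median 1213) over the 39 HIP arrays and from 2246 to 2881 (median 2519) over the P/FC arrays, without overlap. The difference was 1.08 (SE 0.02, adjusted p = 5.34e-54, limma), or 2.12-fold. Stmn1 ranged from 1368 to 2152 (median 1612) in HIP and from 2862 to 3757 (median 3367) in P/FC, without overlap, a difference of 1.02 (SE 0.03, adjusted p = 7.59e-47), or 2.03-fold. A 2-fold higher level in P/FC was called for 1.44% of all probesets.

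Other members differed by less. Stmn4 was higher in P/FC by 0.37, Tubb3 by 0.35 and 0.19, Stmn3 by 0.24, the 3 Mapt probesets by 0.13 to 0.22 and Map2 1388152_at by 0.21. Dcx was higher in HIP, by 0.25 (P/FC minus HIP of -0.25, SE 0.08, adjusted p = 0.00436). The Map1b probesets 1395357_at and 1371003_at were at -0.25 and -0.22, while 1373363_at was at -0.01 (adjusted p = 0.5). For Stmn2 the direction depended on the scaling: 1370042_at was higher in P/FC by 0.08 (adjusted p = 0.00988) and 1370041_at was at 0.00 (adjusted p = 0.932), while after quantile normalisation they were at -0.01 (adjusted p = 0.655) and -0.08 (adjusted p = 0.00222). That scaling also ended the calls of Mapt 1368137_at (0.04, adjusted p = 0.37) and Tubb3 1369901_at (0.09, adjusted p = 0.156), and Map2 1368411_a_at (-0.14, adjusted p = 0.0374) and Map1b 1373363_at (-0.11, adjusted p = 6.65e-07) passed as higher in HIP.

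**Figure D5:**
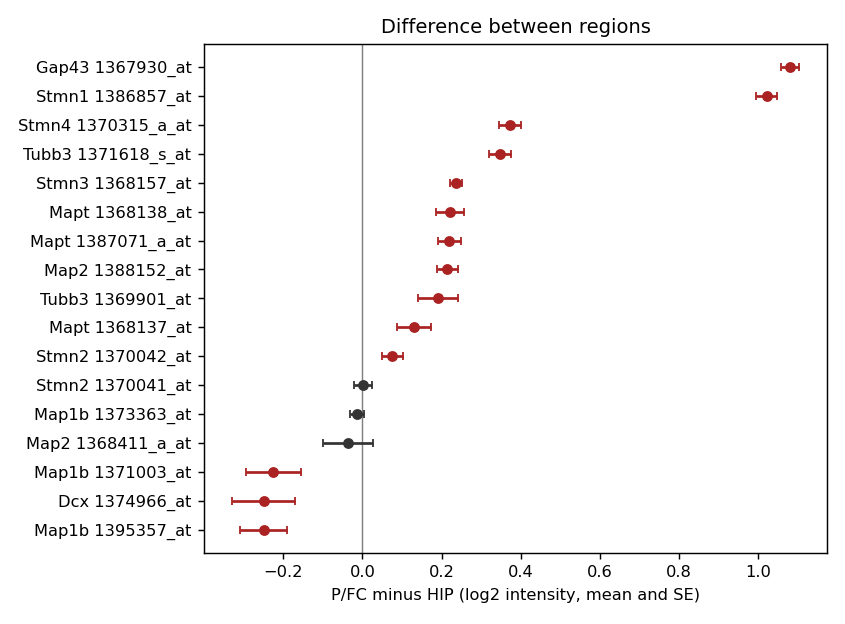
P/FC minus HIP in log2 intensity for the 17 kept member probesets, with standard errors, red where the adjusted p was under 0.05. Gap43 and Stmn1 lie at 1.08 and 1.02, and the other probesets lie between -0.25 and 0.37.

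The line change did not pass as different between the regions for any member (limma, 0 of 17, beside 14 of 20963 probesets, or 0.0668%). At an unadjusted p under 0.05, 4 members did: Stmn3 (0.09, p = 0.00725), the Tubb3 probeset 1371618_s_at (0.13, p = 0.0211) and Stmn2 1370042_at (0.12, p = 0.0265) and 1370041_at (0.09, p = 0.0437), each larger in P/FC. Over all probesets the share was 7.94%.

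Of 71 other microtubule and neurite genes, 65 are on the array and 63 were measured in each region, each by its brightest kept probeset. In HIP 3 were higher and 4 were lower in FSL, and in P/FC 11 were higher and 5 lower, with medians of 0.02 and 0.03 on the log2 scale. Over all kept probesets 3.2% were higher and 4.13% lower in HIP, and 9.76% and 8.86% in P/FC. Those shares also count dimmer probesets of a gene and probesets with no gene symbol. Dpysl4, a collapsin response mediator, was lower in both regions, by -0.21 in HIP (SE 0.04, adjusted p = 0.000433) and by -0.30 in P/FC (SE 0.04, adjusted p = 1.08e-07; limma). In HIP, Map7 was at -0.17 (adjusted p = 8.24e-05) and Tubb4a at -0.22 (adjusted p = 0.00119, a probeset whose suffix _x marks probes shared with other sequences). The neurofilament gene Nefm was at 0.13 (adjusted p = 0.00602), Map6 at 0.25 (adjusted p = 0.00892) and the kinase Mark3 at 0.09 (adjusted p = 0.0126).

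In P/FC, the tubulin folding factor Tbcb was at 0.31 (adjusted p = 0.000719), the neurofilament gene Nefl at 0.20 (adjusted p = 0.00168) and Tubb4b at 0.13 (adjusted p = 0.00306). Pafah1b1, the LIS1 gene of the dynein pathway, was at 0.42 (SE 0.10, adjusted p = 0.00423) and Mark2 at -0.14 (adjusted p = 0.00252). Between regions, Map4 (-1.13), Mark1 (1.02), Map6 (0.69) and Marcksl1 (0.60) differed most of 62 genes, of which 37 were higher in P/FC and 13 in HIP, beside 48.5% and 21.1% of all probesets.

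The genes whose brightest probeset varied most like that of Stmn2 within groups were Cct7, Slc6a15, Necap1, Far1 and Fxr1 in HIP, with Pearson r from 0.64 to 0.68 over 39 arrays. In P/FC they were Nsf, Napb, Cd200, Noct and Slc6a15, with r from 0.71 to 0.76. For Map2 they were Ank2, Uchl1, Serinc1, Pfdn1 and Eef1a1 in HIP (0.65 to 0.73) and Glul, Pum2, Rapgef4, Gprc5b and Ccni in P/FC (0.80 to 0.83). For Dcx they were Acp2, Ptpn2, Efr3b, Vwa1 and Ak4 in HIP (0.64 to 0.66) and N4bp2l1, Adra2a, Shisal1, Zfp423 and Cpne7 in P/FC (0.69 to 0.74). The arrays share their labelling and RNA quality, and these are descriptions with no test.

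Between probesets of 1 gene, none of the 14 pairs passed an adjusted p of 0.05, and 1 had an unadjusted p under 0.05 (Tubb3 in P/FC). By limma over all pairs of named genes, 0 member pairs passed and 2 had an unadjusted p under 0.05, beside 4.18% of 4329 pairs in HIP and 13.4% of 4477 in P/FC called. At the unadjusted threshold the shares over all pairs were 19.7% and 30.8%. Within groups the 2 Stmn2 probesets correlated at r = 0.46 in HIP and 0.69 in P/FC over 39 arrays, and the 2 Map2 probesets at 0.35 and 0.05. The brightest Map1b probeset correlated with the dimmer ones at -0.11 and -0.19 in HIP and at 0.10 and 0.18 in P/FC.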

How the data were processed

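The authors hybridised RNA of each region and cohort to Affymetrix Rat Genome 230 2.0 arrays, normalised the signals with Rosetta Resolver software and deposited the resulting linear intensity of every probeset, less background. Labelling batches are not given in the labels and are not in the models. Lines, cohorts and regions were taken from the labels. Here, 1 was the lowest value allowed before log2 was taken. Following the methods of the study, a probeset had to exceed 30 on 50% or more of a line's arrays, in both lines. Models of HIP and of P/FC were run separately in limma 3.58.1 (R 4.3.3) on the means of the 4 line and cohort groups, and the cohorts had equal weight in the line contrast. Regions were compared over all 78 arrays, treated as independent although both regions came from the same rats. P-values were adjusted over all kept probesets (Benjamini-Hochberg), and 57 controls were left out. Of the probesets, 20826 have 1 gene symbol, 436 several and 9780 none, by an annotation that can be old. Probesets of a gene were compared by permutation of lines within cohort (100000 resamples). Other genes are named by rule: the 6 with the smallest adjusted p in each region and the 4 with the largest region difference in a list of microtubule and neurite genes, and the 5 most correlated with Stmn2, Map2 and Dcx. Members and lists were chosen with earlier results of these data known. Alternatives were no filter, a filter of 100, quantile normalisation, 16 added before log2, a plain analysis of variance, ratio and tissue score covariates and the replicate number as a block. After the data were seen, an array far from its group was left out in each region and all probeset pairs were fitted. The tests were tested on simulated data with known changes. A set share had to be found only for changes larger than those called between the lines here. Python 3.11.15, numpy 2.4.6, scipy 1.17.1 and matplotlib 3.10.9 were used. The number of arrays limits the precision.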

Additional observations from a re-analysis of the deposited data

Results flagged for a closer look

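In 102 groups of 8 to 10 arrays, 3 held an array far from the others by Dixon's test, which chance alone flags in about 1 in 20 groups. The FRL groups of cohort 1, with 12 arrays each, were not in this test. There, Mapt 1387071_a_at had 3573 on FRL P/FC cohort 1 replicate 2, where the next highest array had 2264. The 3 flagged values are as follows. Map1b 1373363_at had 2468 on FSL P/FC cohort 2 replicate 7, where the next lowest array had 2870. Map1b 1395357_at had 925 on FRL HIP cohort 2 replicate 2, where the next had 1276. Dcx 1374966_at had 55.5 on FSL HIP cohort 2 replicate 2, where the next had 75.8.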

How the results depend on the processing

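The number of called members was 3 in HIP and 6 in P/FC. It fell to 1 in HIP with the Actb ratio as a covariate and to 2 in P/FC with the Gapdh ratio, and stayed within 1.5 times under the other alternatives (3 to 4 in HIP, 5 to 7 in P/FC). Of the members, 14 were called between regions, and 12 to 14 were under the alternatives, although quantile normalisation changed which ones passed. The counts of 0 for the differences of the line change between cohorts, regions and probesets were 0 under every alternative run. Of the changes of single probesets under an alternative, 383 kept their sign and side of the threshold, 12 lost the call, 7 gained it and 17 changed sign. With the Actb ratio, Stmn1 (0.00645), Map1b 1373363_at (0.00386), 1395357_at (-0.121) and 1371003_at (-0.0476), Mapt 1368138_at (0.0573) and Dcx (0.0123) changed sign in HIP and Mapt 1368137_at (-0.0139) in P/FC. With the Gapdh ratio in P/FC, Map1b 1395357_at (-0.0419) and 1371003_at (-0.0614) and Mapt 1368138_at (-0.0462) and 1368137_at (-0.0330) did. Stmn1 in P/FC turned to 0.00470 after quantile normalisation and 0.00971 with tissue scores. Between regions, quantile normalisation turned Stmn2 1370041_at to -0.0797 and 1370042_at to -0.0145. None of the sign changes in a line difference was of a called value. The causes were not tested. With the replicate number as a block, Stmn1 (0.00995) and Mapt 1368138_at (-0.0302) changed sign in P/FC, and Map1b 1371003_at passed in HIP (0.16, adjusted p = 0.0434) and in P/FC (0.26, adjusted p = 0.0271), which made 4 and 7 members. Of 17 pairs of FSL and FRL arrays of 1 number, 8 in HIP and 10 in P/FC correlated above 0.1. Of 39 pairs of HIP and P/FC arrays of 1 line and number, 10 did. Without values for pairs of unlike number, these counts cannot show whether arrays of 1 number share more than that number. Without FRL P/FC cohort 1 replicate 2, 5 members passed in P/FC, and without FRL HIP cohort 2 replicate 2, 3 passed in HIP.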
